A study of Mus musculus with 54 samples.

Results

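Lysosomal proton pump, membrane and hydrolase genes were followed in 54 single mouse cells. The labels name every cell an interstitial macrophage of the lung, a macrophage of the tissue between the airspaces. The set holds 41 of the 43280 gene symbols in the deposited tables, and all 41 were found. It consists of the 25 symbols that begin with Atp6v or Atp6ap, which name subunits of the vacuolar proton pump and its accessory proteins, 8 lysosomal membrane genes, and 8 genes of lysosomal hydrolases and their activator. Members were taken by name and function, with earlier results of these data known, and the cathepsin proteases were not included. The cDNA of each cell was amplified and sequenced separately with a variant of SMART-seq2, a method that covers whole transcripts. The labels give no animal, strain, genotype, age, treatment, sort or batch, so the cells count as 1 sample. Cells of 1 sample are not replicates, so no p-value was made from them and the comparisons below describe these cells alone. No 2 of the 54 tables were identical.

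The lysosome is the acidic compartment in which macrophages break down what they engulf. Its acid comes from the vacuolar proton pump, whose V1 part burns ATP on the cytosolic side and drives a ring in the membrane-bound V0 part. Heavily glycosylated membrane proteins such as LAMP1 and LAMP2 line the compartment, and soluble hydrolases inside it take apart sugars, lipids and proteins. Many of these genes carry a short promoter element, CACGTG with its flanks, which is bound by the transcription factors TFEB, TFE3 and MITF.

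That element was looked for in the 250 bases before the transcription start, where RefSeq promoter sequences of build GRCm38.p6 were held for 32 of the 41 members. The windows below show the element in the members that hold it. Each is 30 bases long, is read 5′ to 3′ on the gene's own strand and has the 6 letters of the motif in capitals.
Atp6v0b: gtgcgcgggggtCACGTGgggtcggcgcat
Atp6v1a: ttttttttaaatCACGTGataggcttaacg
Gaa: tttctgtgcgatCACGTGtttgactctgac
Glb1: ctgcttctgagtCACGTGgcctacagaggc
Lamp1: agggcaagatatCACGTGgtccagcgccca
Mcoln1: ggtcgcgcttgtCACGTGttcagttcaggc
These windows lie at chr4:117887348-117887377 (minus strand), chr16:44139373-44139402 (minus), chr11:119267811-119267840 (plus), chr9:114401018-114401047 (plus), chr8:13159088-13159117 (plus) and chr8:3500436-3500465 (plus), in the order printed. The first base of the motif was 36, 131, 140, 48, 61 and 71 bases before the start in that order. Where the 250 bases held several copies, the one farthest from the start is shown: Lamp1 held 4, and Atp6v0b and Mcoln1 2 each.

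CACGTG, which reads the same on both strands, was found in 6 of 36 promoters of the members, or 16.7%, and in 6.02% of all 32851 RefSeq promoters. The longer TCACGTGA, which contains it, was found for Atp6v1a and Mcoln1 and in 0.785% of all promoters. In Mcoln1 it lies in a copy that is not printed, 45 bases before the start. Between the cell groups defined in the next paragraph, Glb1, Gaa, Atp6v1a and Lamp1 were higher in high cells by 3.08, 3.01, 1.58 and 1.48 in mean log2(TPM + 1). In the pairs of cells described below these were 2.71, 2.65, 1.27 and 0.85. Atp6v0b differed by 0.38, and by -1.04 in the pairs. Of members searched and found without CACGTG, Gusb, Atp6v0e and Man2b1 were higher by 3.72, 3.11 and 3.10. Atp6v0a1 and Psap, also without it, differed by -1.15 and -1.03. A link of the element to the differences was not tested. Mcoln1, in 2 high and 6 low cells, differed by -1.28, which was -0.59 with the groups made on Prg4 and Fn1 alone. A match is a description of the letters and no evidence of binding. Of the factors themselves, Tfe3 reached 10 TPM in 14 of the 54 cells, Tfeb in 4, Mitf in 4 and Tfec in 2.

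Cells were grouped by the mean log2(TPM + 1) of Prg4 (lubricin), Alox15 (a lipoxygenase) and Fn1 (fibronectin). TPM, a transcript abundance corrected for length, is scaled to a fixed total within each cell and allows levels of genes of different length to be compared. A mean of 7 or more gave 23 cells, called high cells here, and a mean under 7 gave 31, called low cells. The means ran from 7.31 to 12.7 in high cells and from 0 to 5.34 in low cells. High cells 31 and 20, at 7.31 and 7.76, lay just above the threshold, and low cells 29 and 1, at 5.34 and 4.86, just below it. A group made this way is a range of the score and not a cell type.

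Of 8 macrophage markers, at least 3 reached 10 TPM in 23 of 23 high cells and 29 of 31 low cells. C1qb, a chain of complement C1q, reached 10 TPM in 23 of 23 high cells and 29 of 31 low cells, and Csf1r, the receptor of the macrophage growth factor, in 20 and 29. Mertk, an uptake receptor, did so in 5 high and 7 low cells and Fcgr1, an Fc receptor, in 3 and 5. Of 15 further genes known from macrophages of the serous cavities, the median number at 10 TPM was 7 in high cells and 0 in low cells, with summed levels of 363 to 13002 TPM in high cells and 0 to 9213 TPM in low cells. All 15 reached 10 TPM in some cell. Their part in the differences below was not tested. Of 10 alveolar macrophage markers, 9 reached 10 TPM in some cell, Siglecf in none, and cells 31 (high) and 40 (low) held 6 each. Their summed level ran from 7.21 to 5571 TPM in high cells and from 4.04 to 43523 TPM in low cells. Fabp4, of that list, reached 10 TPM in 16 high cells and 0 low cells. The 2 low cells with fewer than 3 macrophage markers were cell 40 and cell 36, which held 3 of 6 T and NK cell markers (Nkg7, Klrb1c and Ncr1, summed to 4721 TPM) and 3 of 7 monocyte markers (summed to 2448 TPM). Cells 31, 36 and 40 thus go against their label in part, and the list results are also given without them.

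High cells also held more genes. The number of genes at 10 TPM or more ran from 792 to 3653 in high cells (median 1877) and from 522 to 2239 in low cells (median 1413). The depth behind each cell is unknown, because TPM does not keep it, and this number is given beside the results in its place; its part in them was not tested beyond the paired cells below. A gene listed at 0 is not shown to be absent. Of the members' values above 0, 22.6% were under 10 TPM, and a cell is said here to hold a gene from 10 TPM upward. Cell 31 was unlike the others, with a lowest value above 0 of 9.5 TPM, where the next highest was 0.08 TPM in cell 12. It had 1325 genes above 0 and 1324 at 10 TPM, so nearly every gene found in it counts as held.

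The number of members held followed the number of genes held. High cells held 7 to 27 of the 41 members (median 17) and low cells 4 to 20 (median 14), and the groups overlapped. As a share of all genes held, the members made up a median of 0.933% in high cells and 0.925% in low cells, and 12 of 23 high cells lay above the low-cell median. Within each group, cells with more genes held more members, with a Pearson's r of 0.84 over 23 high cells (Spearman's rho 0.85; r 0.79 without the 2 cells farthest from the median) and of 0.82 over 31 low cells (rho 0.78; r 0.75 without 2 cells). Both counts of a cell come from the same library, and every member held is also a gene held. In total TPM the members took a median of 1.38% in high cells and 1.06% in low cells.

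**Figure D1:**
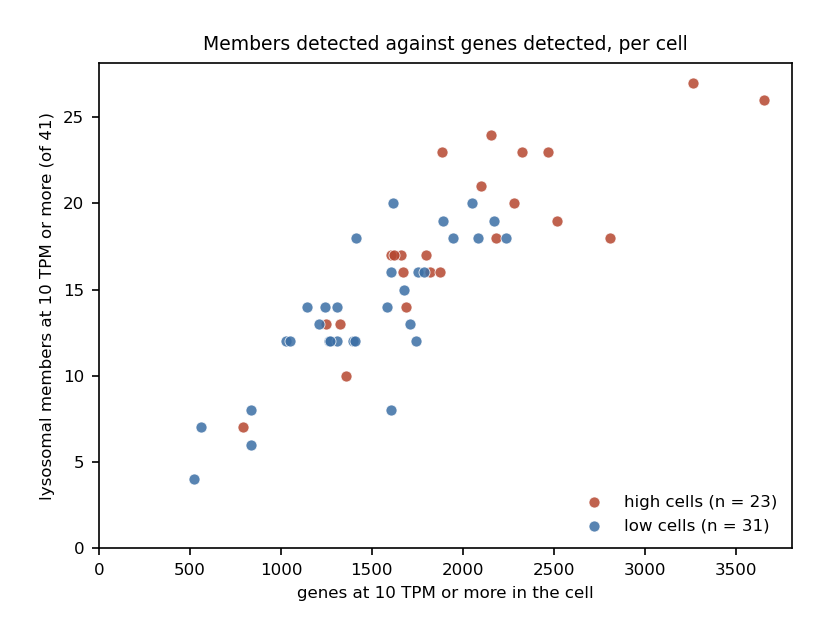
Members at 10 TPM or more (vertical axis, of 41) against all genes at 10 TPM or more (horizontal axis) in each of 23 high cells and 31 low cells, 1 point a cell. Both groups lie along 1 band, and the high cells reach further along it, up to 27 members against 20.

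**Figure D2:**
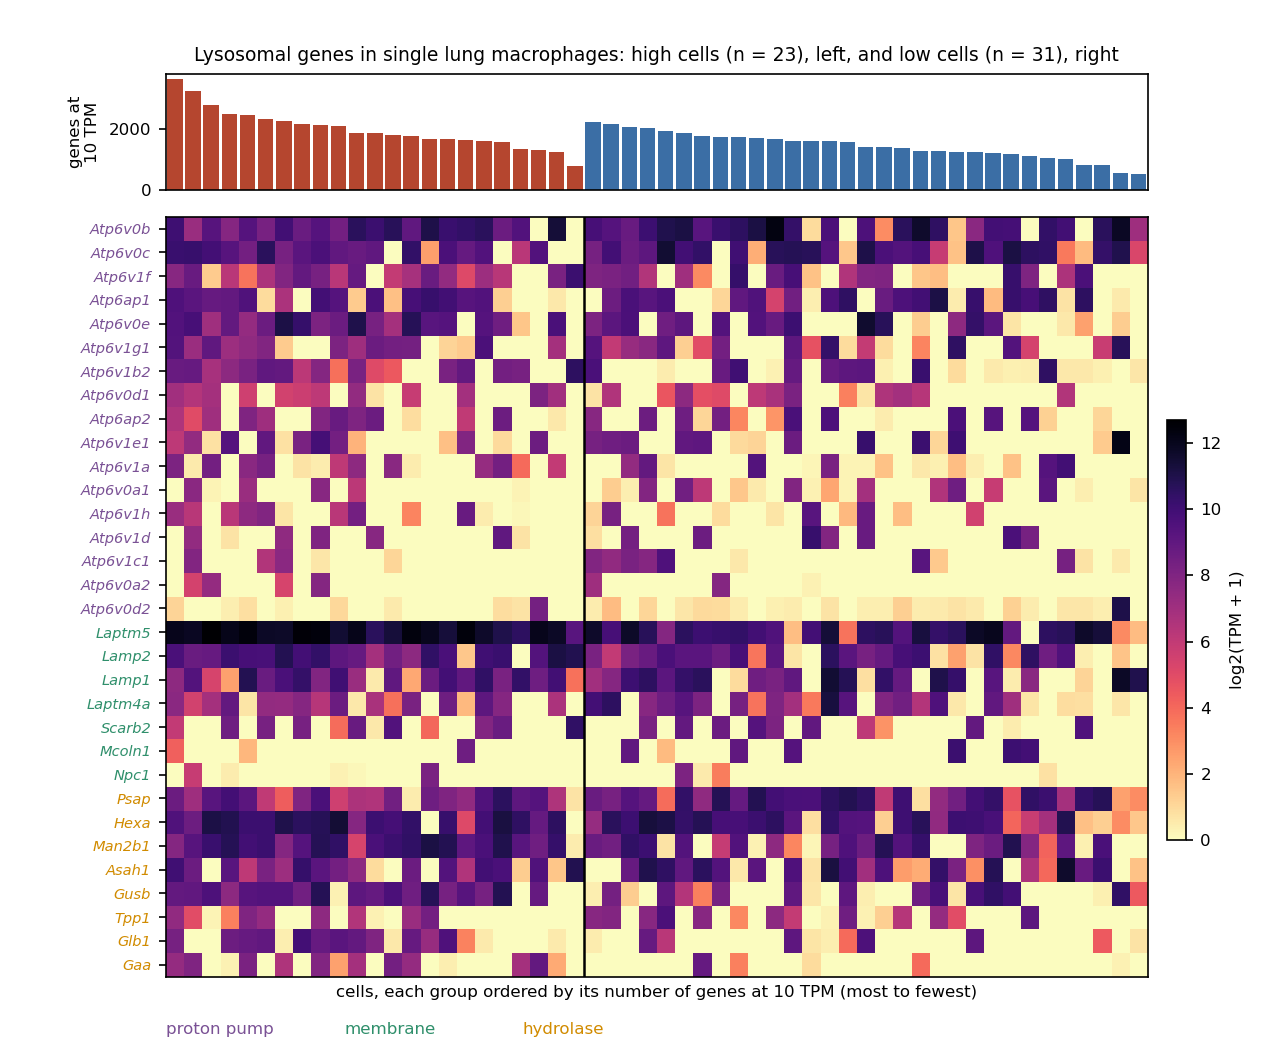
Level of the 32 members that reached 10 TPM in at least 1 cell, as log2(TPM + 1), in 23 high cells (left of the line) and 31 low cells (right), with the number of genes at 10 TPM above each cell. Gene names are coloured by role, and Laptm5 is dark in every high cell while most pump genes are dark in some cells and pale in others.

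Of the 41 members, 30 reached 10 TPM in at least 5 cells, 7 were listed at 0 in every cell, and 2 (Gpnmb and Atp6v1g2) were above 0 but never at 10 TPM. The other 2 were Npc1, in 4 cells, and Atp6v0d2, in 2. Among the 30, mean log2(TPM + 1) was higher in high cells by 1 or more for 14, or 46.7%, against 30.2% of all 5593 genes under the same filter. It was lower by 1 or more for 3, or 10.0%, against 7.97% of all genes. The median difference was 0.76 over the 30 members and 0.45 over all genes. With the filter raised to 10 cells, 14 of 28 members were higher, or 50%, against 41.6% of 2948 genes, and 2 were lower, or 7.14%, against 9.43%. A member such as Gaa, held by 10 high and 2 low cells, passed mainly through 1 group, so the shares are a description only, as is their distance to all genes, since the members were chosen with results known. Without cells 31, 36 and 40, 13 members were higher and 4 lower.

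Differences were then taken in cells with like numbers of genes. Each high cell was paired with the nearest unpaired low cell within 300 genes at 10 TPM, which gave 17 pairs with medians of 1687 genes in high cells and 1740 in low cells. There the median difference of all genes was 0.01, and 23% of genes were higher and 22.5% lower by 1 or more. Of the 28 members that passed in the paired cells, 10 were higher and 7 lower, or 35.7% and 25%, with a median difference of 0.00. High and low cells held medians of 17 and 16 members in the pairs. The plot of both differences shows members on each side of 0, and they are described by role below.

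**Figure D3:**
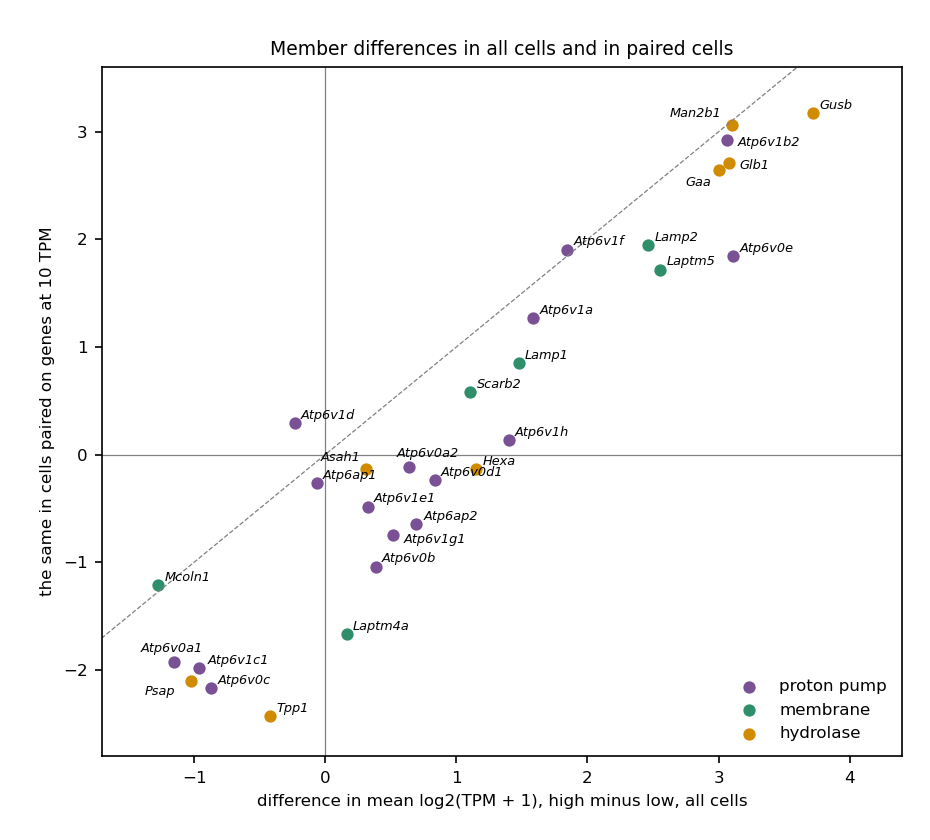
Difference in mean log2(TPM + 1), high minus low cells, for the 30 members that reached 10 TPM in at least 5 of all cells (28 of them also in the pairs), in all cells (horizontal axis) and in 17 pairs of cells alike in genes held (vertical axis); the dashed line marks equal values. Gusb, Man2b1, Glb1, Gaa and Atp6v1b2 lie far to the upper right, while Psap, Atp6v0c, Atp6v1c1 and Atp6v0a1 lie at the lower left.

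In the membrane-bound V0 part of the pump, the proteolipid genes were among the most widely held members. Atp6v0b, which encodes a ring subunit, ran from 0 to 2712 TPM in high cells (median 655) and from 0 to 4902 TPM in low cells (median 945), and was held by 21 of 23 and 25 of 31 cells. Atp6v0c, the main ring subunit, ran from 0 to 1574 TPM in high cells (median 511) and from 0 to 2846 TPM in low cells (median 892), held by 18 and 26. The groups overlapped in both genes, with differences of 0.38 and -0.87 in all cells and of -1.04 and -2.17 in the pairs. A pseudogene annotated as a copy of Atp6v0c, Gm15487, was at most at 5.31 TPM, but reads of near-identical copies can be split, so Atp6v0c is uncertain.

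Atp6v0e, a small V0 subunit, differed the other way. It ran from 0 to 2199 TPM in high cells (median 401) and from 0 to 3076 TPM in low cells (median 1.53). It was held by 19 of 23 high cells, or 82.6% (exact 95% binomial interval 61.2 to 95.05%), and by 14 of 31 low cells, or 45.2% (27.3 to 64.0%). These intervals cover counting error only. Its mean log2 level was 7.56 ± 3.56 in high cells and 4.45 ± 4.64 in low cells (SD over 23 and 31 cells), a difference of 3.11 in all cells and of 1.85 in the pairs.

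The a subunit, which forms the proton path beside the ring, was spread over 3 genes. Atp6v0a1 was held by 4 high and 9 low cells, with highest values of 214 and 586 TPM and differences of -1.15 in all cells and -1.93 in the pairs. Atp6v0a2 was held by 4 and 2 cells (0.64, and -0.12 in the pairs, where it was held by 2 and 2, too few to pass). Tcirg1, the a3 subunit gene known for its role in osteoclasts and lying outside the symbol rule, was held by 9 high and 14 low cells (-0.83). Atp6v0d1, whose product couples V0 to V1, was held by 12 high and 12 low cells, with medians of 43.1 and 0 TPM. It differed by 0.84 in all cells and by -0.23 in the pairs.

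In the ATP-burning V1 part, 3 genes were higher in high cells by 1 or more in mean log2(TPM + 1), in all cells and in the pairs alike. Atp6v1b2, a subunit of the catalytic head, ran from 0 to 1468 TPM in high cells (median 234) and from 0 to 1460.0 TPM in low cells (median 0.36). It was held by 18 of 23 high cells, or 78.3% (56.3 to 92.5%), and 9 of 31 low cells, or 29.03% (14.2 to 48.04%), and it differed by 3.07 and by 2.92 in the pairs. Atp6v1f, a subunit of the central stalk, ran from 0 to 1121 TPM in high cells (median 112) and from 0 to 1253 TPM in low cells (median 7.56), held by 19 and 15, with differences of 1.84 and 1.91. Atp6v1a, the ATP-binding subunit, was held by 11 high and 6 low cells, with medians of 0.64 and 0.17 TPM and differences of 1.58 and 1.27, the first at 0.95 with the groups made on Alox15 and Fn1. The ranges of the groups overlapped in each. In the cells holding them, the median TPM of all 3 was lower in high cells, as given below.

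Other V1 genes did not share that direction. Atp6v1g1, a subunit of the outer stalk, ran from 0 to 802 TPM in high cells (median 133) and from 0 to 1672 TPM in low cells (median 25.5), held by 13 and 16, with a difference of 0.52 in all cells and -0.74 in the pairs. Atp6v1c1, a regulatory subunit at the joint of V1 and V0, was held by 3 high and 7 low cells, with highest values of 244 and 759 TPM and differences of -0.96 and -1.98. Atp6v1d, the central shaft, was held by 5 and 7 cells (-0.23, and 0.30 in the pairs), with highest values of 518 and 1224 TPM. Atp6v1e1 was held by 9 and 10 cells (0.32, and -0.48 in the pairs). Atp6v1h, which regulates the V1 part, was held by 8 and 5 cells, with a difference of 1.40 that was 0.14 in the pairs.

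The B, C, E and G subunits were each held in 1 form, as Atp6v1b2, Atp6v1c1, Atp6v1e1 and Atp6v1g1. Atp6v1g2 was at most at 0.69 TPM. Atp6v1b1, Atp6v1c2, Atp6v1e2 and Atp6v1g3, forms restricted to fewer tissues, were listed at 0 in all 54 cells. A count of 0 cells leaves room for a share of 5.56% of cells at 10 TPM, by counting of cells alone, and sets no limit on cells that express these genes. Atp6v0a4, Atp6v0e2 and Atp6ap1l were at 0 as well. Atp6v0d2, the d2 form of the coupling subunit, reached 10 TPM in cell 31, at 325 TPM, and in cell 40, at 2099.8 TPM. These were the cells that held 6 alveolar macrophage markers each.

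Of the accessory subunits, Atp6ap1 ran from 0 to 1198 TPM in high cells (median 482) and from 0 to 2202 TPM in low cells (median 419). It was held by 14 and 19, with differences of -0.06 in all cells and -0.26 in the pairs. Atp6ap2, the prorenin receptor, was held by 11 and 9 cells (0.69, and -0.64 in the pairs). The pump is built from 13 kinds of subunit, counting Tcirg1 with the a subunits and leaving out the accessory proteins. High cells held 2 to 12 of them (median 7) and low cells 1 to 10 (median 5), so no cell held all 13. The C subunit was held least, by 3 high and 7 low cells, and Atp6v0b most.

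Over the whole pump list the mean level per cell had a median of 2.74 in high cells and 2.27 in low cells, a difference of 0.47 that was 0.11 in the pairs and 0.55 without cells 31, 36 and 40. Of its 25 genes, 16 passed the filter, with 5 higher and 1 lower by 1 or more in all cells. These are 31.25% and 6.25%, near the 30.2% and 7.97% of all genes. Among the 15 that passed in the pairs, 4 were higher and 4 lower, or 26.7% each, near the 23% and 22.5% of all genes. The median difference over those 15 genes was -0.26, so the pump list had no steady direction in the pairs.

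Among lysosomal membrane genes, Laptm5 stood out for its level and for its evenness in high cells. Laptm5, a transmembrane protein of blood cell lysosomes, ran from 603 to 6661 TPM in high cells (median 3749) and from 0 to 4095 TPM in low cells (median 1344). All 23 high cells and 27 of 31 low cells held it. Its mean log2 level was 11.72 ± 0.79 in high cells and 9.16 ± 3.33 in low cells (SD over 23 and 31 cells), a difference of 2.56, with 1.72 in the pairs.

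Lamp2, which also takes part in chaperone-mediated autophagy, ran from 0 to 2261 TPM in high cells (median 836) and from 0 to 1567 TPM in low cells (median 368). It was held by 21 high and 21 low cells and differed by 2.46, with 1.95 in the pairs. Lamp1 ran from 0.43 to 1844 TPM in high cells (median 417) and from 0 to 3568 TPM in low cells (median 369.6), held by 20 and 20, with differences of 1.48 and 0.85, the first at 0.90 with the groups made on Prg4 and Fn1. Laptm4a, a relative of Laptm5, ran from 0 to 555 TPM in high cells (median 106) and from 0 to 2429 TPM in low cells (median 118), held by 16 and 19, with differences of 0.16 and -1.66. Values of the groups overlapped in all 3.

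Less widely held was Scarb2 (LIMP-2), an abundant lysosomal membrane protein, in 11 high and 9 low cells. It differed by 1.11, and by 0.58 in the pairs. Mcoln1, the lysosomal calcium channel, was held by 2 and 6 cells and differed by -1.28. Its difference in the pairs was -1.21, where 1 high and 3 low cells held it, too few to pass the filter. The Scarb2 difference was 0.45 to 0.94 under 6 of the alternative settings and under 1 without any 1 of cells 10, 12, 16, 20, 22, 27, 41 or 45, lowest at 0.80 without cell 12. Npc1, the cholesterol exporter, was held by 2 and 2 cells. Gpnmb, a marker of lipid-laden and damage-associated macrophages, was at most at 0.26 TPM in high cells and 0.69 TPM in low cells. The membrane list had a median level of 4.94 in high cells and 4.13 in low cells, a difference of 0.81. That difference was 0.34 in the pairs and 0.68 without cells 31, 36 and 40. In all cells 4 of the 6 genes that passed were higher and 1 lower, against 30.2% and 7.97% of all genes. In the pairs 2 of 5 were higher and 1 lower, against 23% and 22.5%.

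The hydrolase list differed most of the 3 lists. Its mean level per cell had a median of 6.65 in high cells and 4.82 in low cells, a difference of 1.83, and 20 of 23 high cells lay above the low-cell median. With the threshold at 8, which puts cells 20 and 31 among the low cells, that difference was 1.02, and it was 0.68 in the pairs. Without cells 31, 36 and 40 it was 1.35. All 8 genes passed, with 5 higher and 1 lower, against 30.2% and 7.97% of all genes. In the pairs 4 were higher and 2 lower, against 23% and 22.5%. High cells held a median of 6 of the 8, and low cells 4.

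The genes higher in high cells included enzymes that cut sugar units from larger molecules. Gusb, beta-glucuronidase, ran from 0 to 1811 TPM in high cells (median 479.6) and from 0 to 1384 TPM in low cells (median 0.61). It was held by 19 of 23 high cells, or 82.6% (61.2 to 95.05%), and 13 of 31 low cells, or 41.9% (24.5 to 60.9%). Its mean log2 level was 7.62 ± 3.62 in high cells and 3.89 ± 4.35 in low cells (SD over 23 and 31 cells), a difference of 3.72, with 3.17 in the pairs.

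Man2b1, an alpha-mannosidase, ran from 0.38 to 2282 TPM in high cells (median 997) and from 0 to 1893 TPM in low cells (median 318), held by 22 and 21, with differences of 3.10 and 3.06. Glb1, beta-galactosidase, ran from 0 to 939 TPM in high cells (median 154) and from 0 to 772 TPM in low cells (median 0), held by 12 and 7, with differences of 3.08 and 2.71. Gaa, the acid glucosidase that breaks down glycogen, ran from 0 to 477 TPM in high cells (median 3.85) and from 0 to 462 TPM in low cells (median 0). It was held by 10 of 23 high cells, or 43.5% (23.2 to 65.5%), and 2 of 31 low cells, or 6.45% (0.791 to 21.4%), with differences of 3.01 and 2.65. In none of these did the groups separate, since some low cells reached the values of high cells.

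**Figure D4:**
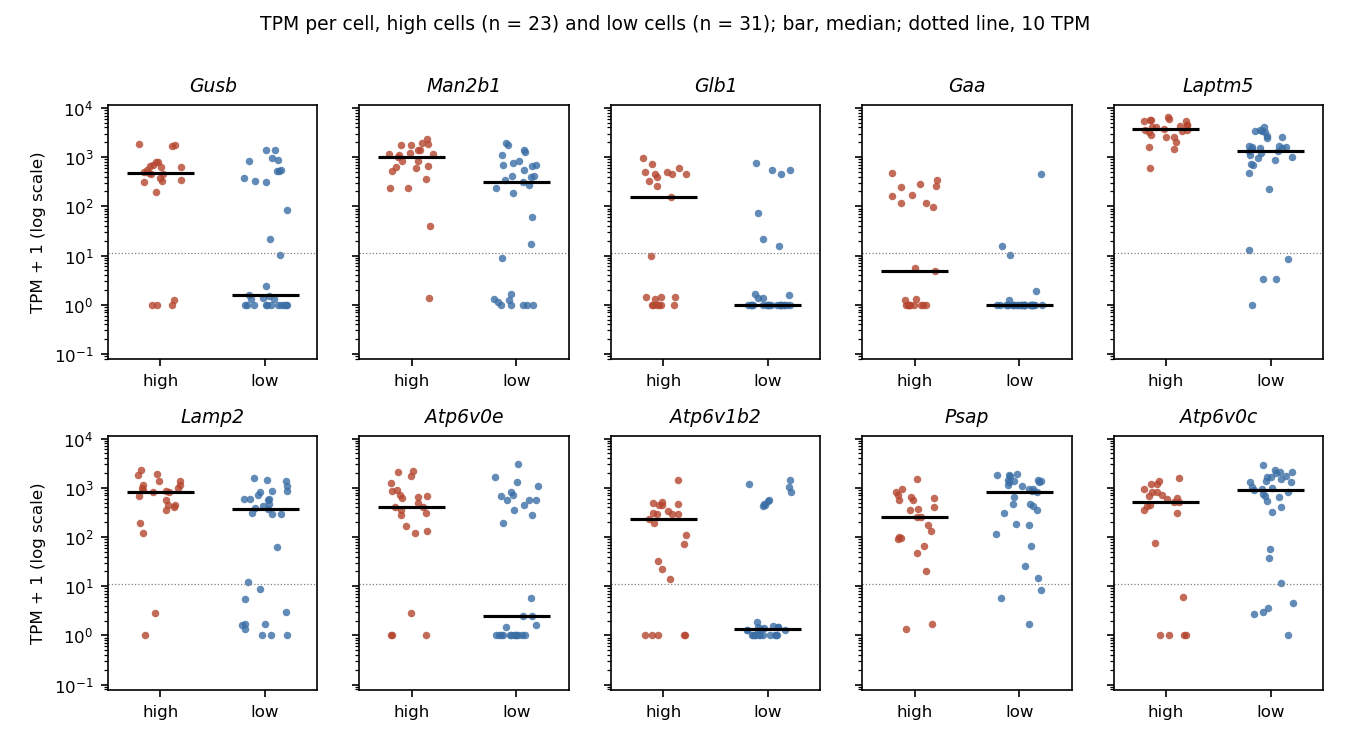
TPM + 1 on a log scale in each of 23 high cells (left in each panel) and 31 low cells (right) for 10 members, with a bar at the median and a dotted line at 10 TPM. Gusb, Glb1, Gaa, Atp6v0e and Atp6v1b2 differ mainly in how many cells lie above the line, and Psap and Atp6v0c have the lower median in high cells.

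Psap, the precursor of the saposins that help hydrolases reach their lipids, went the other way. It ran from 0.38 to 1533 TPM in high cells (median 258) and from 0.74 to 1860.4 TPM in low cells (median 800.2). It was held by 21 and 28 cells and differed by -1.03, with -2.10 in the pairs. The difference in all cells was near 1 in size, at -0.51 when each cell was scaled to the median of its genes at 10 TPM, -0.71 without cell 54 and -0.73 without cell 12. Tpp1, a tripeptidyl peptidase, ran from 0 to 343 TPM in high cells (median 0) and from 0 to 809.5 TPM in low cells (median 0.23), held by 8 and 12, with differences of -0.42 and -2.43.

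Hexa, a subunit of beta-hexosaminidase, ran from 0 to 2813 TPM in high cells (median 1135) and from 0.78 to 2512 TPM in low cells (median 879), held by 21 and 25, with a difference of 1.15 that was -0.13 in the pairs and 0.75 without cells 31, 36 and 40. Asah1, acid ceramidase, ran from 0 to 1892 TPM in high cells (median 335) and from 0 to 3228 TPM in low cells (median 429), held by 17 and 20, with differences of 0.31 and -0.13.

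The level within the cells that hold a gene can differ from the share of cells that hold it. In cells at 10 TPM or more, Laptm5 had a median of 3749 TPM in high cells and 1513 TPM in low cells, Man2b1 1060.3 and 537 TPM, and Lamp2 867 and 582 TPM. Gusb had 554 TPM in the high cells holding it and 525 TPM in the low cells holding it, and Glb1 451 and 444 TPM, so these differed in share rather than in level. Lamp1 had 504 and 1186 TPM, Psap 354 and 893 TPM, and Atp6v0b 711 and 1157 TPM, lower in high cells. Atp6v1b2 had 293 and 570 TPM, Atp6v1f 170 and 270 TPM, and Atp6v1a 208 and 565 TPM. These were lower in high cells too, though more high than low cells held them. The median TPM of all genes a cell held was itself lower in high cells, at 202 TPM against 298 TPM in low cells (medians over cells).

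**Figure D5:**
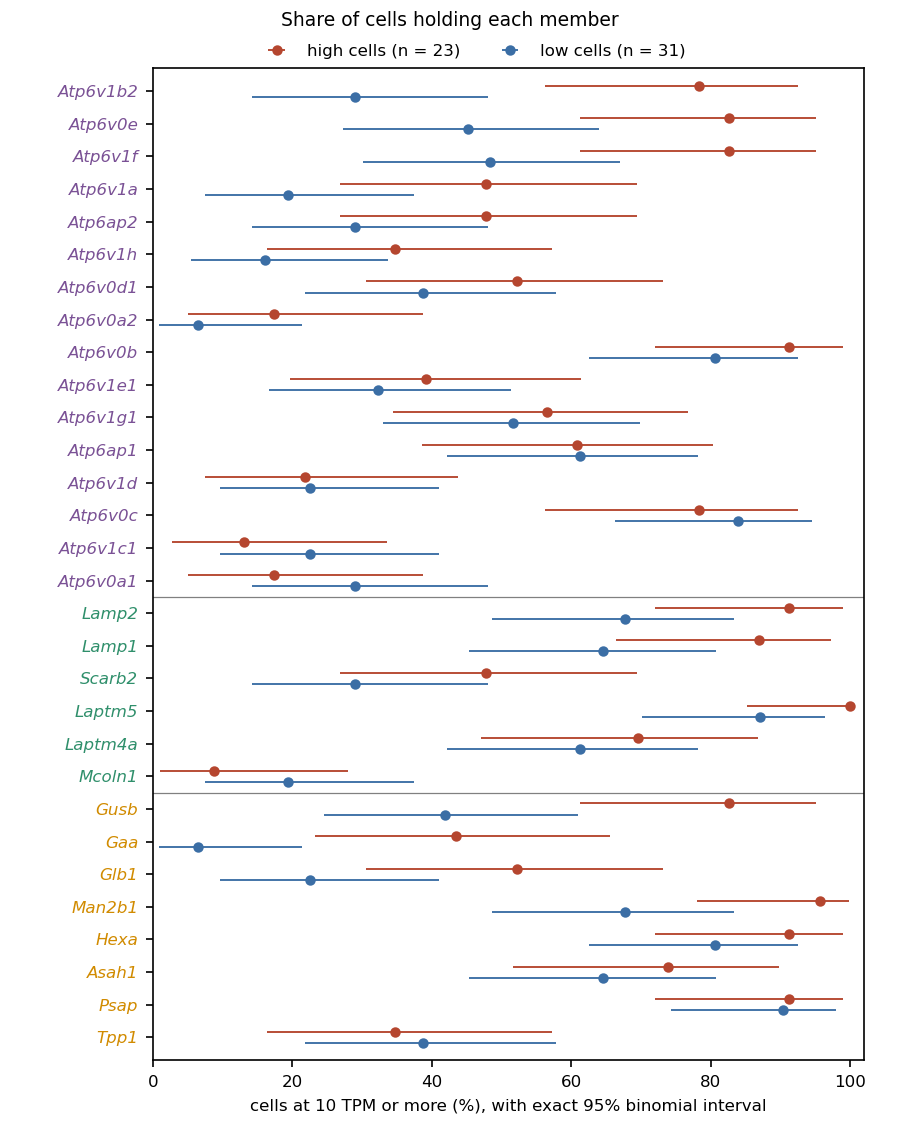
Share of cells at 10 TPM or more for the 30 members that passed the filter, with exact 95% binomial intervals, in 23 high cells (upper point of each pair) and 31 low cells (lower point), ordered within each role by the gap. Atp6v1b2 at 78.3% against 29.03% has the widest gap among pump genes and Gusb at 82.6% against 41.9% the widest among hydrolases, while for Psap the 2 points lie side by side.

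Other genes of the lysosome were taken from a list chosen by function. All 77 were found and 50 passed the filter, of which 17 were higher by 1 or more in high cells and 6 lower, or 34% and 12%, beside the 30.2% and 7.97% of all genes. They were compared in all cells only and not in the pairs, so these differences are not set against like numbers of genes held. The largest differences upward were those of Hgsnat, an enzyme of heparan sulfate breakdown (4.98), and Lamtor4, part of the platform that anchors mTORC1 to the lysosome (3.81). Hgsnat was held by 17 high and 7 low cells and Lamtor4 by 18 and 6. Of 25 hydrolases and activators that passed, 10 were higher and 4 lower, and of 7 genes of the mTORC1 platform 4 were higher and 0 lower. Among those 10, Naglu (7 high and 0 low cells) and Arsa (6 and 0) passed the filter through high cells alone. The counts are thus a description only.

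The largest differences downward were those of Cd63, a tetraspanin of lysosomes and endosomes (-4.57), Acp2, the lysosomal acid phosphatase (-2.52), and Pla2g15, a lysosomal phospholipase (-2.15). Cd63 was held by 4 high and 19 low cells, with medians of 0 and 548 TPM. None of the 3 passing pump assembly and a3 genes, and none of the 3 passing sorting genes, differed by 1 or more.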

How the data were processed

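The authors deposited 1 table of TPM values per cell, made with RSEM per the submitters' processing notes, which name no version. Which aligner, build and annotation they used is not given in the sources used here. TPM totals were 997509 to 1e+06 per cell.

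The scale was log2(TPM + 1), on which differences understate the change of low genes. A list level is the mean over all its genes, also those at 0. Differences are high minus low cells, of group means for genes and of medians over cells for lists. Members at 10 TPM in at least 5 of 54 cells were compared, and a difference of 1 or more in mean log2(TPM + 1) was counted. It is no 2-fold change of level in the cells that hold a gene, since many values were 0. The share of cells holding the gene enters it as well. Ranges are given for members at 10 TPM in at least 27 cells, and for the 6 with the largest difference each way among those in at least 10 cells. The step was run on shuffled values with known differences added, which checks its arithmetic only. Shares carry Clopper-Pearson intervals, and a share of 0 the limit of 3 counts. No doublet caller was run on these tables without molecule counts. Members and lists were chosen with earlier results of these data known. B cell markers and 1 gene of the wider lysosome list are not reported here. Python 3.11.15, pandas 2.3.3 and SciPy 1.17.1 were used.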

Additional observations from a re-analysis of the deposited data

How the results depend on the processing

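Taken as medians over cells, the list differences and the difference in members held kept their sign under the alternatives run (13 for each list, 16 for the members held). They also did so when each cell was left out, but their size moved. For the pump list in the pairs the sign depended on the measure, with 0.11 by medians over cells and -0.26 as the median over its passing genes. The hydrolase difference ranged from 0.68 to 1.91, the membrane one from 0.34 to 1.05, the pump one from 0.11 to 0.63 and that of all members from 0.41 to 0.93, and that of members held per cell from 1 to 5. The number of members higher by 1 or more was 9 with a pseudocount of 10, which shrinks differences of low genes, 10 to 15 otherwise, and 13 to 15 with a cell left out. The share of all genes moved too, to 13.3% with a pseudocount of 10. Under the other alternatives it ran from 12.1% with no filter to 42.1% with a pseudocount of 0.1. The number lower by 1 or more was 5 with a pseudocount of 0.1, beside 12.1% of all genes, and 0 with one of 10, beside 3.67%. It was 1 with values under 10 TPM set to 0 (7.97% of all genes) and 1 when each cell was scaled to the median of its genes at 10 TPM (6.65%). In the paired cells it was 7, beside 22.5% of all genes, and the cause was not tested. With a cell left out it was 2 to 4. The scaling to the median moved the median of all genes by 0.16, and the pairing by -0.44. Of 17 members past 1, Hexa alone changed sign, to -0.13 in the paired cells, and 9 were under 1 in at least 1 alternative (Atp6v0a1, Atp6v1a, Atp6v1f, Atp6v1h, Hexa, Lamp1, Mcoln1, Psap and Scarb2). With a cell left out this held for Atp6v0a1, Hexa, Psap and Scarb2. The alternative without the 4 cells nearest the threshold was chosen after seeing the data. No paired analysis was possible because the samples form 1 group; the pairs above are of cells. Depth is unknown in TPM.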
